A study of Homo sapiens with 2 samples.

Results

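The replication-dependent histone gene clusters HIST1, on chromosome 6, and HIST2, on chromosome 1, were examined in GM12878, an established human line of B cells immortalised by Epstein-Barr virus. A region of the deposited list belonged to a cluster if its midpoint lay in chr6:26010000-27870000 or chr1:149750000-149870000 of hg19. By this rule the clusters held 52 of the 23612 accessible regions. HIST1 was divided at 26290000 and 27090000 into the first histone interval (18 regions over 280 kb), an interval named for its butyrophilin genes (10 regions over 800 kb) and the second histone interval (22 regions over 780 kb). HIST2 held 2 regions over 120 kb. ATAC-seq, in which a transposase cuts and tags open DNA, had been applied to 2 untreated cultures of exponentially growing cells, with 50000 cells from each. The cultures form 1 group of 1 cell line and share 1 list of regions with no values per culture, so nothing was compared between conditions. Spread between the cultures could not be measured, depth is unknown, and the comparisons along the genome below are descriptions with no test.

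Histone genes of this kind supply the protein around which newly copied DNA is wrapped. The core histones H2A, H2B, H3 and H4 form the nucleosome particle, and the linker histone H1 binds the DNA that enters and leaves it. These genes are transcribed mainly while DNA is replicated, lack introns in most cases, and give mRNAs that end in a stem-loop and not in a poly(A) tail. Their many copies lie close together and are transcribed in a nuclear structure called the histone locus body, where the factor NPAT gathers.

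The promoters of the 5 histone families differ in the short elements they carry, and some copies are so alike that short reads cannot be told apart between them. The sequences below are the 250 bases before the transcription start from RefSeq (GRCh38.p14), written 5′ to 3′ on the strand of the gene. They show the kind of sequence the histone intervals hold, and are not the sequences of listed regions. H1-1 (linker histone H1), H2AC4 (H2A), H2BC3 (H2B), H3C1 (H3) and H4C2 (H4) lie on chromosome 6. H4C14 (H4) lies in HIST2 on chromosome 1, and its promoter is letter for letter that of the copy H4C15, also in HIST2. H3C1 and H4C14 lie on the plus strand and the others on the minus strand. Capitals mark matches on either strand to 4 short elements. TATAAA is the TATA box. CCAAT is the core of the element bound by the factor NF-Y. ATTTGCAT is the octamer bound by OCT factors. AAACACA is an element known from H1 promoters. The stretch of H4C14 holds none of them.
H1-1: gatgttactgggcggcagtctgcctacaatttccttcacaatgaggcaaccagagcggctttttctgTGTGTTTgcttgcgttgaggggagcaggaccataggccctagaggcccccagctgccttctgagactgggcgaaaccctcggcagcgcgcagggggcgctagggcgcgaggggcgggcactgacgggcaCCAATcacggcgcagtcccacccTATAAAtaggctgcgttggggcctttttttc
H2AC4: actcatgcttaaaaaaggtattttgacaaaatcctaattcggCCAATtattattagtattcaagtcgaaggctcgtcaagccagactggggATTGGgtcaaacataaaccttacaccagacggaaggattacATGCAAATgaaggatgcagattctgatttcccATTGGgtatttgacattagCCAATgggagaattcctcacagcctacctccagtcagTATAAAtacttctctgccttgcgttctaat
H2BC3: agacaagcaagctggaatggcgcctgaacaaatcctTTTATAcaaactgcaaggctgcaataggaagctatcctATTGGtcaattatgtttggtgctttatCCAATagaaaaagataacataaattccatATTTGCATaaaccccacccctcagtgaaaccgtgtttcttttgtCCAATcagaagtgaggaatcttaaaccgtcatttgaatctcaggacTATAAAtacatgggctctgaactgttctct
H3C1: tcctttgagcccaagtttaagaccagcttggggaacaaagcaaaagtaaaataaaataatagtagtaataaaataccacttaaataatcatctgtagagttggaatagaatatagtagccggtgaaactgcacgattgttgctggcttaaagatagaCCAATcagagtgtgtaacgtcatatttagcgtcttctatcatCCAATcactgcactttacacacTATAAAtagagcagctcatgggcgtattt
H4C2: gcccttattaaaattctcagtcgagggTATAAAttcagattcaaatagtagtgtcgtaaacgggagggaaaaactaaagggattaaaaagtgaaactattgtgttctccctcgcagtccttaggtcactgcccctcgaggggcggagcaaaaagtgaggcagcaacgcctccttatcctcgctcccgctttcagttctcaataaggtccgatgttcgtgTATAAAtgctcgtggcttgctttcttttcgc
H4C14: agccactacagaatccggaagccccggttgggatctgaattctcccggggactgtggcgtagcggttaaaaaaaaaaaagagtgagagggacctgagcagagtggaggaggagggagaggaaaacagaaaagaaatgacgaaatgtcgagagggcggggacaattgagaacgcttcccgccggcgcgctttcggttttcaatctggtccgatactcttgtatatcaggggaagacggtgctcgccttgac

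Matches to the octamer and AAACACA were missing from some histone families, while CCAAT and TATAAA were found in each family at unequal shares. The share of the 27305 RefSeq promoters, taken from 250 bases before to 50 after the start, that held a match is given beside each count. CCAAT was found in 52 of 61 histone promoters (85.2%) and in 35.7% of all promoters. It was present in all 6 H1, 15 H2A, 17 H2B and 11 H3 promoters with a sequence and in 3 of 12 H4 promoters. Of the butyrophilin promoters, 3 of 4 held it too. The octamer was found in 14 of 17 H2B and 11 of 15 H2A promoters, in 1 of 11 H3 promoters and in none of the H1 and H4 promoters, while 492 of all 27305 promoters held it. AAACACA was found in 6 of 6 H1 promoters in 2 of 11 H3 promoters and in 1 of 15 H2A promoters, and in none of the H2B and H4 promoters. It was also found in 3 of 4 butyrophilin promoters and in 5.76% of all promoters. TATAAA was found, on either strand and at any position, in 41 of 61 histone promoters (67.2%), against 11.95% of all. By family it was in 3 of 6 H1, 12 of 15 H2A, 12 of 17 H2B, 8 of 11 H3 and 6 of 12 H4 promoters. The H2A and H2B promoters are not independent. Of 13 pairs of neighbouring H2A and H2B genes, 10 pointed away from each other, and the 2 promoters of each such pair shared between 253 and 293 bases of the same DNA. A match is a run of letters and does not show that a factor was bound. The genes without a promoter entry were H2AC12, H3C11, H3C12, H4C1, H4C3, BTN2A2 and BTN3A1.

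The gene order in the same RefSeq table places 32 of the listed histone genes before the butyrophilin genes, 21 after them and 11 in HIST2. The other 2, H2AC1 and H2BC1, lie apart upstream. The genes before the butyrophilin genes comprise 5 of H1, 4 of H2A, 8 of H2B, 7 of H3 and 8 of H4. Those after them comprise 1, 7, 6, 3 and 4 in the same order, and HIST2 holds 4 of H2A, 2 of H2B, 3 of H3 and 2 of H4. The table is of another build than the list, so its positions were not used and no gene was assigned to a region.

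Accessible regions were dense in both histone intervals of HIST1 and sparse just upstream of them. The first histone interval (chr6:26010000-26290000, band 6p22.2) held 64.3 regions per Mb, and regions covered 8.98% of its length. The second histone interval (chr6:27090000-27870000, band 6p22.1) held 28.2 per Mb and was covered to 3.45%. The butyrophilin interval between them (chr6:26290000-27090000) held 10 regions in 800 kb and was covered to 0.963%. Butyrophilins are membrane proteins of the immunoglobulin superfamily that act in T cell recognition and milk fat secretion. The 1 Mb upstream of HIST1 held 6 regions, which covered 0.478% of it, whereas chromosome 6 as a whole held 9.43 per Mb and was covered to 0.846%.

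**Figure D1:**
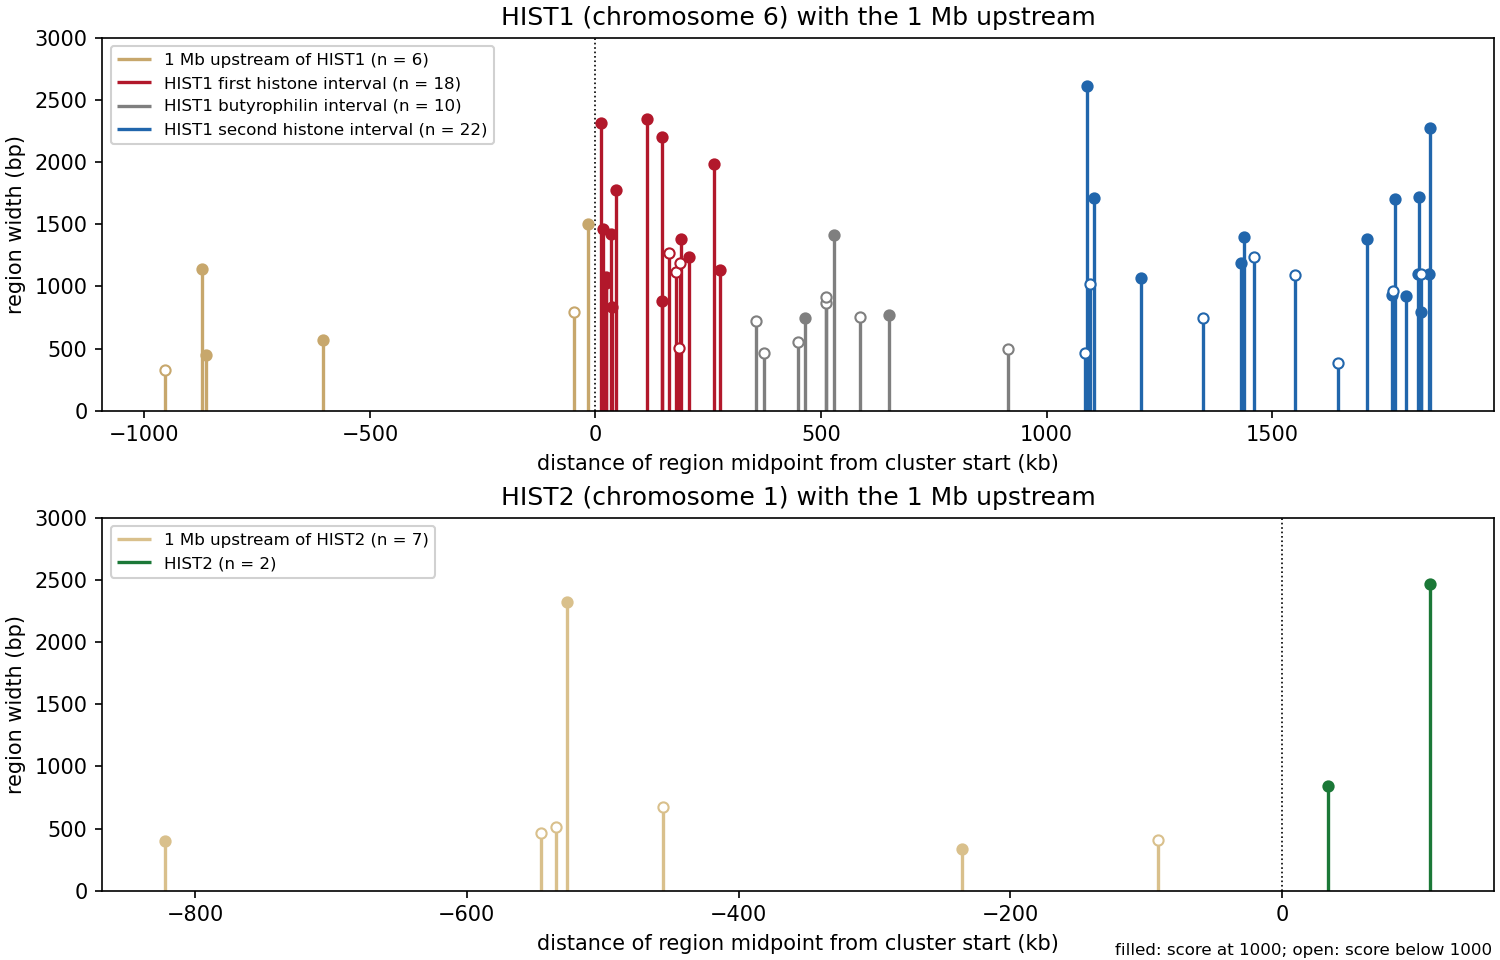
Accessible regions of the 2 histone clusters and the 1 Mb upstream of each, drawn by the distance of their midpoint from the cluster start (kb) and by their width (bp); each line is 1 region, filled points have a score of 1000 and open points a lower one. In HIST1 the 18 regions of the first histone interval crowd into 280 kb, and the 22 of the second lie mostly at its 2 ends; HIST2 shows 2 regions.

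The first histone interval thus held 10.7 times the density of the 1 Mb upstream, the second 4.70 times and the butyrophilin interval 2.08 times. Against chromosome 6 the same intervals lay at 6.82, 2.99 and 1.33 times. Together the histone intervals of HIST1 held 40 regions, or 37.7 per Mb, which was 6.29 times the upstream density. The size of that ratio rested on the comparison stretch, because the Mb next to the cluster was sparse. It was 2.70 against the 2 Mb upstream (28 regions) and 2.68 against the stretch from the cluster's end to the region-free interval of chromosome 6 (7 regions over 498 kb). Taken alone, the first histone interval lay at 4.59 times the 2 Mb upstream and 4.57 times the downstream stretch, and the second at 2.01 times each. The butyrophilin interval lay below both, at 0.893 and 0.889 times, so its direction turned with the comparison stretch.

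**Figure D2:**
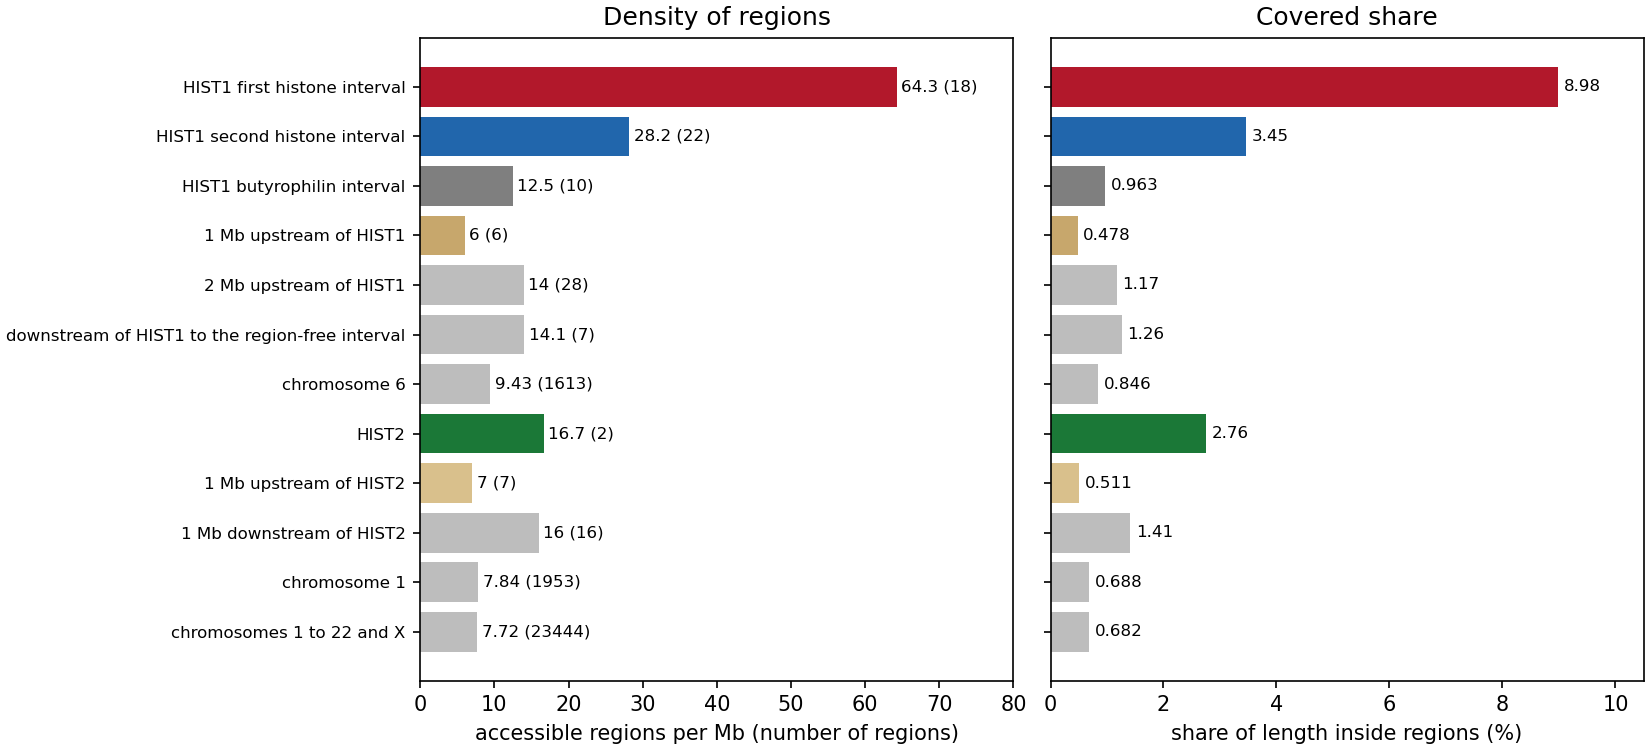
Accessible regions per Mb (left, with the number of regions in parentheses) and the share of the length inside regions in % (right) for the intervals of both clusters, the stretches beside them and whole chromosomes. The first histone interval, with 64.3 regions per Mb and 8.98% covered, stands above the other bars, and HIST2 at 16.7 per Mb lies close to the 16 per Mb of the Mb downstream of it.

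For scale, chromosomes 1 to 22 and X were laid out in adjoining windows of each interval's length, without centromeric, variable and stalk bands. Of 10013 windows of 280 kb, 5 (0.0499%) held 18 or more regions, the number in the first histone interval, and the median window held 2. Of 3573 windows of 780 kb, 47 (1.32%) reached the 22 regions of the second histone interval, where the median was 5. For the butyrophilin interval, 908 of 3484 windows of 800 kb (26.1%) held 10 or more, with a median of 6. For HIST2, 5841 of 23403 windows of 120 kb (25%) held 2 or more, with a median of 0. The first and second histone intervals thus lay far out in the distribution of windows, while the butyrophilin interval and HIST2 held numbers that about 1 window in 4 reaches. The windows include those that overlap the clusters themselves, and they were not matched for gene content. Of the windows of 280 kb, 3078 (30.7%) held 0 regions, as did 367 (10.3%) of those of 780 kb.

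Regions in the histone intervals were also wide. The median width was 1252.5 bp in the first histone interval (exact 95% order-statistic interval 1074 to 1779) and 1103 bp in the second (934 to 1396). It was 750.5 bp in the butyrophilin interval (499 to 915), 682 bp in the 1 Mb upstream of HIST1 (328 to 1504) and 756 bp over the whole list. Of the whole list, 29.8% of regions were 1000 bp or wider. In the first histone interval 15 of 18 were that wide, in the second 15 of 22, and in the butyrophilin interval 1 of 10. The intervals of the medians describe these regions and not the cultures, and that of the upstream Mb overlaps those of both histone intervals. The 2 regions within 500 kb upstream were 798 and 1504 bp wide. Against these the difference in median width of the HIST1 histone intervals was 7.5 bp, where it was 476.5 bp against the full Mb.

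**Figure D3:**
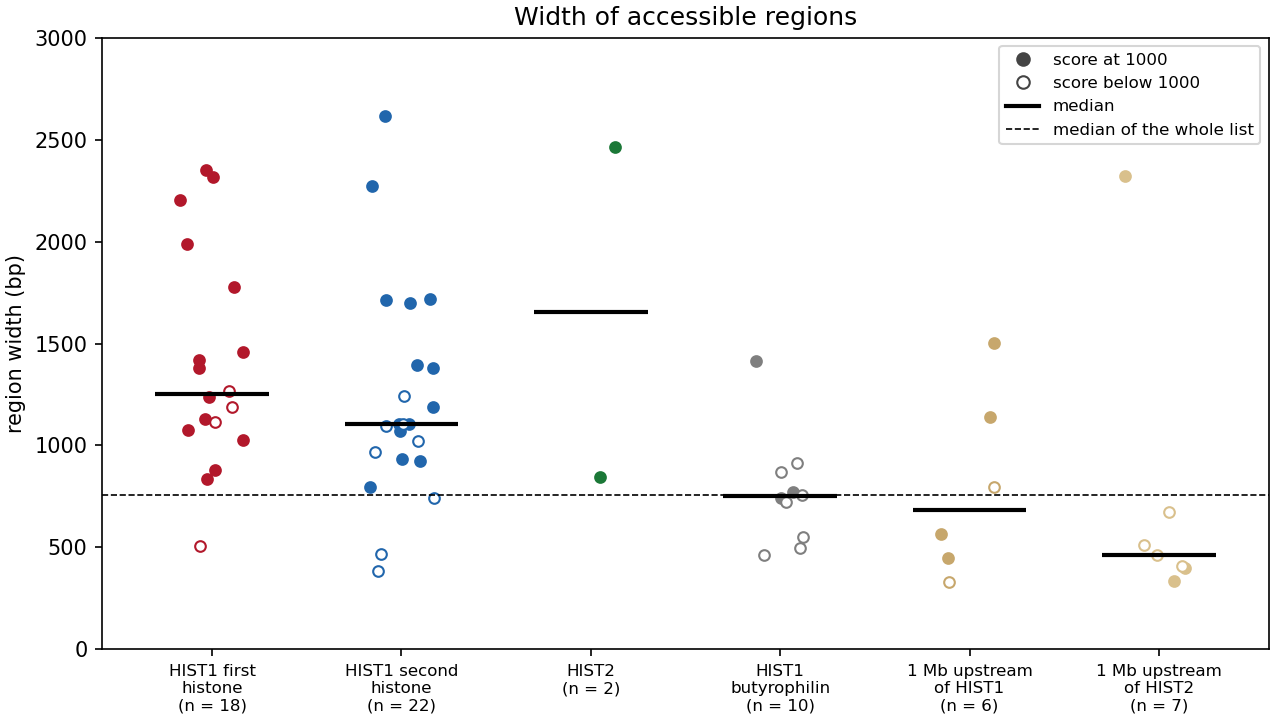
Width in bp of each accessible region by interval, with black bars at the medians, the dashed line at the median of the whole list (756 bp), and filled points for a score of 1000. Most regions of both histone intervals of HIST1 lie above the dashed line, while those of the butyrophilin interval lie around it.

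The authors' score of each region is a whole number with a cap of 1000. No header names it, so its scale is not stated, and it is used here only to rank regions within the list. The label of the list points to a threshold of 0.05 on the irreproducible discovery rate (IDR). Whether the score derives from that rate is not stated. Over the whole list 60.1% of regions were at the cap. In the first histone interval 14 of 18 were at the cap (77.8%, exact Clopper-Pearson 95% interval 52.4 to 93.6), and in the second 14 of 22 (63.6%, 40.7 to 82.8). The butyrophilin interval had 3 of 10 at the cap (30%, 6.67 to 65.2). The 1 Mb upstream of HIST1 had 4 of 6 (66.7%, 22.3 to 95.7). The share in the second histone interval was near that of the whole list, and that in the first was higher. The intervals of all 4 shares are wide and include 60.1%. These intervals cover counting error only.

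Scores and widths rise together in this list, so widths were set out by score as well. At the cap the median width in the HIST1 histone intervals was 1379.5 bp, against 953 bp for all regions at the cap. Below the cap it was 1058.5 bp in the histone intervals and 556 bp in the whole list. The regions of the histone intervals were thus wider in both score classes, by 426.5 and 502.5 bp. In the butyrophilin interval the corresponding differences were -181 and 166 bp.

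Of the 42 regions in the histone intervals of both clusters, 30 (71.4%) were at the score cap, among them all of the 10 widest. The widest spanned 2614 bp in the second histone interval (chr6:27099366-27101979). The next was the HIST2 region of 2465 bp (chr1:149857898-149860362). In the first histone interval the widest were chr6:26122656-26125005 (2350 bp), chr6:26020378-26022692 (2315 bp) and chr6:26157188-26159389 (2202 bp). The last member of HIST1, chr6:27860210-27862484, was 2275 bp wide. The rest of the 10 were chr6:26272457-26274444 (1988 bp), chr6:26055168-26056946 (1779 bp), chr6:27833936-27835652 (1717 bp) and chr6:27113744-27115457 (1714 bp). Of the 10, 5 lay in the first histone interval, 4 in the second and 1 in HIST2.

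The 10 narrowest of the 42 ran from 385 to 934 bp, and 6 of them were at the cap. The 4 below it were the 4 narrowest of all: 385 bp with a score of 596 (chr6:27655287-27655671), 467 bp with 587 (chr6:27094799-27095265), 509 bp with 563 (chr6:26195510-26196018) and 743 bp with 586 (chr6:27356337-27357079). Only the third of these lay in the first histone interval. The score of 563 there was the lowest of all 42. Wide, capped regions and narrow, low-scoring ones stood side by side: the 467 bp region lay 4.1 kb from the 2614 bp one.

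Neighbouring regions lay close together in the histone intervals. The median distance between the midpoints of successive regions was 10.4 kb in the first histone interval and 17.2 kb in the second. It was 46.9 kb in the butyrophilin interval, 82.2 kb in the 1 Mb upstream of HIST1 and 44.9 kb over chromosomes 1 to 22 and X. Spacing was thus shortest in the first histone interval and near the background in the butyrophilin interval. The median distance to the nearest region, edge to edge, was 2.43 kb in the first histone interval and 4.49 kb in the second, against 16.4 kb in the butyrophilin interval, 27.8 kb upstream of HIST1 and 18.3 kb over the list. Over the list 10.1% of regions had a neighbour under 1 kb away. In the first histone interval 8 of 18 had one, in the second 4 of 22, in the butyrophilin interval 2 of 10, and upstream of HIST1 0 of 6. The closest were chr6:26156297-26157178 and chr6:26157188-26159389, with 9 bp between them. The other pairs of the first interval with less than 1 kb between them were separated by 125, 291 and 630 bp, and those of the second by 232 and 457 bp. Such pairs may be counted as 1 region or as 2 by a peak caller, so the covered share is given beside each density above.

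**Figure D4:**
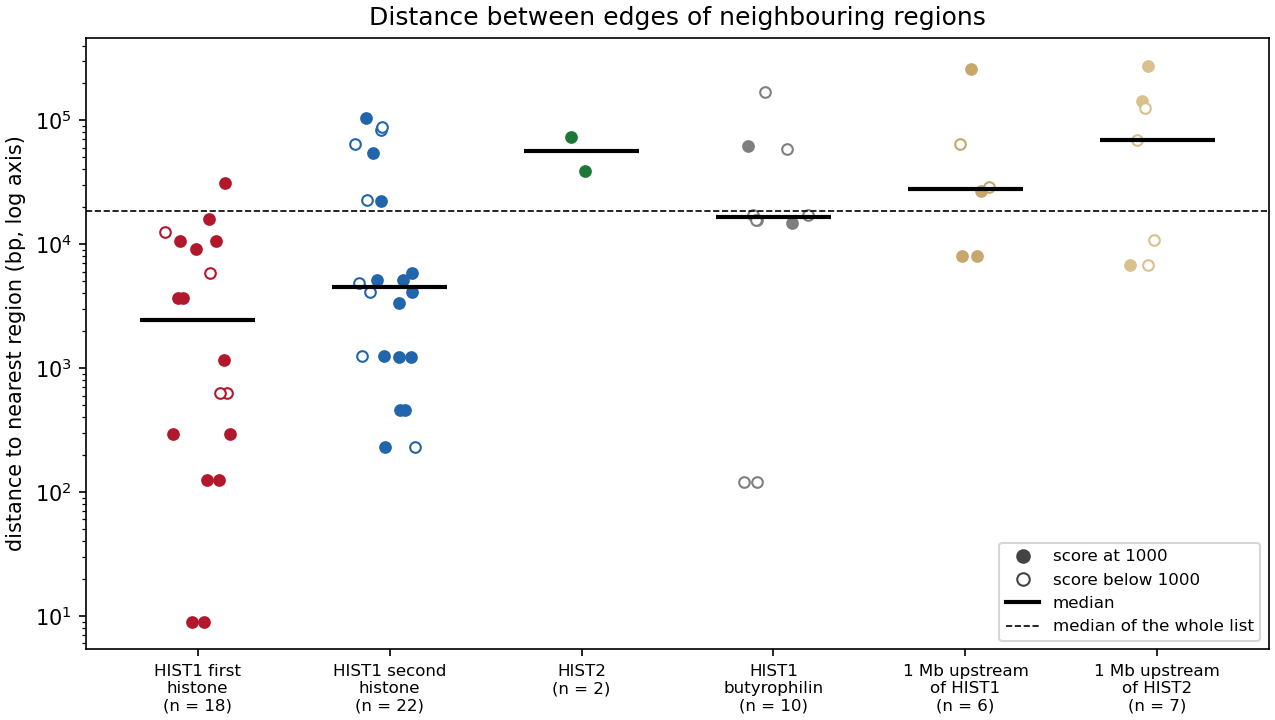
Distance in bp (log axis) from each region to the nearest other region, edge to edge, by interval, with black bars at the medians and the dashed line at the median of the whole list (18.3 kb). The medians of the first and second histone intervals lie at 2.43 and 4.49 kb, below the dashed line, and that of the 2 HIST2 regions above it at 56.3 kb.

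Regions of the histone intervals formed 5 runs of 3 or more with at most 12500 bp between successive midpoints, and these runs held 22 of the 42 (52.4%). Over chromosomes 1 to 22 and X, 17.1% of regions lay in such runs. The number of runs rested on the joining distance, since only 2 runs, with 6 regions, were left at 5 kb. These held 14.3% of the 42, against 5.87% of regions over chromosomes 1 to 22 and X in runs at that distance. At 25 kb the shares were 76.2% and 32.2%. At 12500 bp the longest run opened HIST1, with 7 regions over 36.6 kb (chr6:26020378-26056946). All 7 were at the score cap, and they covered 27.1% of the run. It was followed by 65.7 kb without a region, the longest such stretch of the first histone interval, and then by 1 region of 2350 bp. The other run of that interval held 4 regions over 11.9 kb (chr6:26188509-26200376), of which 1 was at the cap. The second histone interval had 3 runs, of 4 regions (chr6:27094799-27115457), 3 regions (chr6:27775332-27783527) and 4 regions (chr6:27832376-27841742). The butyrophilin interval, HIST2 and the 1 Mb upstream of HIST1 had 0 runs. The 1 Mb upstream of HIST2 had 1, of 3 regions.

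Within the second histone interval many of the regions lay in a group at each end, with a sparser stretch between them. These groups were singled out from the list itself after it was seen, so their densities are only a description. The first group held 4 regions over 20.7 kb (chr6:27094799-27115457), 2 of them at the cap. The last group held 10 regions over 87.2 kb (chr6:27775332-27862484), 8 of them at the cap, and covered 14.5% of that stretch. Between the groups 8 regions lay over 660 kb, or 12.1 per Mb with 1.29% covered, beside the 10 regions in 800 kb of the butyrophilin interval. Both values were above those of chromosome 6 as a whole, at 9.43 per Mb and 0.846%. Of the 8 regions between the groups, 4 were at the cap. Their median width was 1141 bp, beside 1368 bp in the first group and 1103 bp in the last. Wide regions were thus not confined to the groups. The longest stretch without a region, 136 kb, lay between the groups (chr6:27219931-27356336). In the RefSeq gene order, too, the histone genes after the butyrophilin genes fall into 5 (H2BC11 to H2AC12) and 16 (H2BC13 to H2BC17), parted by 5 other protein-coding genes, among them the serine protease gene PRSS16 and the zinc finger genes ZNF391 and ZNF184. The likeness is of order only, and no position was carried between the builds.

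The butyrophilin interval had lower values than both histone intervals of HIST1 in density, covered share, median width and share at the cap, with no test of these differences. Its 3 widest regions were 1413 bp (chr6:26537369-26538781, at the cap), 915 bp (chr6:26521774-26522688, score 615) and 871 bp (chr6:26520782-26521652, score 844). The last 2 lay 121 bp apart. The other 5 below the cap were chr6:26365101-26365822 (686), chr6:26383107-26383569 (935), chr6:26457865-26458415 (687), chr6:26596830-26597587 (920) and chr6:26924449-26924947 (583). The remaining 2, at the cap, were 743 and 772 bp wide. Of the 10 regions, 9 lay in the first 370 kb of the interval, and 264 kb without a region followed (chr6:26660485-26924448). The RefSeq order has 9 protein-coding genes between the histone genes on either side, 6 of them butyrophilin genes (BTN3A2, BTN2A2, BTN3A1, BTN3A3, BTN2A1 and BTN1A1).

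HIST2 (chr1:149750000-149870000, band 1q21.2) carried fewer regions than HIST1 for its length. Its 2 regions, chr1:149783485-149784329 (845 bp) and chr1:149857898-149860362 (2465 bp), were both at the score cap (100%, exact Clopper-Pearson 95% interval 15.8 to 100). They gave 16.7 regions per Mb and covered 2.76% of the interval. The density was 2.38 times that of the 1 Mb upstream, which held 7 regions, and 0.259 times that of the first histone interval. Against the 1 Mb downstream (16 regions) the ratio was 1.04, so the density of HIST2 was near that of this flank. The covered share was 5.39 times that upstream and 1.95 times that downstream. Against chromosome 1 as a whole, the density was 2.13 times and the covered share 4.01 times as high. These ratios rest on 2 regions.

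The stretch between the 2 HIST2 regions, 73.6 kb, was without a listed region (chr1:149784330-149857897). Among the RefSeq promoters, the 3 pairs with the longest shared stretch of the 377 pairs within families were all of HIST2. H4C14 and H4C15 shared all 300 bases, H2AC18 and H2AC19 shared 299, and H3C14 and H3C15 shared 296. The other 374 pairs shared at most 126 bases, reached by H4C11 and H4C12 of HIST1, and the median over all 377 was 10 bases. Aligned without gaps, H4C11 and H4C12 were nonetheless identical at 98.3% of bases, and H2AC13 and H2AC14 of HIST1 at 84%. Near copies were thus not confined to HIST2. In the gene order the 6 genes of the 3 HIST2 pairs lie between H3C13 and H2BC21. A read from such a stretch has more than one place of origin in the genome. The label of the list points to a filter for mappability, whose steps are not given. The part of these copies, or of that filter, in the number of regions listed in HIST2 was not tested. The stretch is not read as closed chromatin.

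The members nearest the bounds of the rule were clear of them. The last region before HIST1 was chr6:25991996-25993499 (1504 bp, score 1000), which ended 16.5 kb before the start of the cluster, and the next beyond its end was chr6:28047677-28049523 (1847 bp, score 1000), 178 kb further on. For HIST2 the regions just outside were chr1:149658385-149658795 (411 bp, score 800) and chr1:149899462-149900064 (603 bp, score 967). Within HIST1, regions of 1130 and 722 bp lay on the 2 sides of 26290000, and of 499 and 467 bp on those of 27090000. No region lay across a bound. Region numbers ran on without a gap within the intervals and the stretches beside them, which does not show whether any region was filtered out. The last member of HIST1 ended 505 kb before the interval of chromosome 6 in which no region was listed (chr6:28367914-33538525).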

How the data were processed

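Per the labels, 2 ATAC-seq libraries were made from separate GM12878 cultures. For both together the authors deposited 1 list in hg19, which gives each region a whole-number score (541 to 1000) and no counts. Tools listed without roles, per the submitters' processing notes, are MACS2 2.1.0, BWA 0.7.13, bedtools 2.24.0, CASAVA 1.8.4, SAMtools 0.1.19, Trim Galore 0.3.3 and Picard 1.92. The label of the list points to an IDR threshold of 0.05 and to filters for mappability, mitochondrial DNA and blacklisted stretches. How these filters were applied, a shift of reads for the transposase and the treatment of multiply mapped reads are not given in the sources used here. Regions were assigned to intervals by midpoint with Python 3.11.15, numpy 2.4.6, pandas 2.3.3 and scipy 1.17.1. Plots used matplotlib 3.10.9. Chromosome lengths and bands came from circlize 0.4.16 in R 4.3.3. Positions are 1-based. Counting was tested on simulated data. All 66 histone genes listed matched the RefSeq table and 61 had a promoter. Promoter likeness is the longest identical stretch on the same strand, and divergent pairs were compared on opposite strands. Identity without gaps is the best over shifts of up to 50 bases. Named regions are the 10 widest and 10 narrowest of the histone intervals, since these held more than 40, and in the butyrophilin interval the 3 widest and those below the cap. Printed promoters are the first of each family with a promoter entry in the block before the butyrophilin genes. Of the most alike pair, H4C14 is printed. The members and lists were chosen with earlier results of these data known. Alternatives were the rule of overlap, other comparison stretches, the score cap and other joining distances. Distances and runs use midpoints, and edge-to-edge distances and the ratios of single HIST1 intervals to other stretches were added after seeing the data. No hg19 sequence or annotation was used.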

Additional observations from a re-analysis of the deposited data

How the results depend on the processing

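Among 42 alternative settings for 10 results, values stayed the same in 23, moved in 17 and reversed in 2. A ratio or a count was the same within 1.5 times, and a difference in width or score share within the exact interval of the members. For the HIST1 histone intervals, the density ratio of 6.29 became 2.68 against the downstream side and 2.70 against 2 Mb upstream, and the ratio of covered shares of 10.3 became 3.90 and 4.19. Taken alone, an alternative chosen after seeing the data, the first interval's density ratio of 10.7 became 4.57 downstream and 4.59 against 2 Mb upstream. The second interval's 4.70 became 2.01 against both, and the butyrophilin interval's 2.08 turned to 0.889 and 0.893. The difference in median width of 476.5 bp became 7.5 bp against 500 kb upstream, a stretch with only 2 regions. The difference in the share at the score cap of 3.33 percentage points became 20 against both 500 kb and 2 Mb upstream. For HIST2 the density ratio of 2.38 became 1.04 against the downstream side and 5.56 among regions at the cap. Its ratio of covered shares of 5.39 became 1.95 downstream, 9.71 against 500 kb upstream and 9.02 at the cap. The cause of these shifts was not tested. Assignment by overlap changed no value, since 0 regions lay across a bound. The 5 runs became 2 when joined at 5 kb, 6 at 25 kb and 6 with distances edge to edge, an alternative chosen after seeing the data. No paired analysis was possible because both cultures share a single list, and neither culture could be omitted for the same reason. Depth is unknown, so a stretch without regions cannot be called closed.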

Other observations

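The surroundings of HIST1 were uneven. From 1 to 2 Mb upstream, 22 regions were listed in 1 Mb, with a median width of 731.5 bp (exact 95% order-statistic interval 589 to 1091), and 10 of them were at the score cap. The Mb next to the cluster held 6, of which 2 lay in the last 50 kb before its start. Downstream, 7 regions lay in the 498 kb before the region-free interval of chromosome 6, with a median width of 610 bp, and 4 were at the cap. Both medians lay below the 1252.5 bp of the first histone interval, and this difference was not tested.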
